A study of Mus musculus with 6 samples.

Results

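The genes described here encode the mitochondrial machinery that burns fatty acids and pyruvate, in RNA-seq libraries of mouse fat labelled epididymal white adipose tissue. They were chosen by name, as a list of 34 genes of beta-oxidation, the electron transfer flavoprotein, pyruvate dehydrogenase and the TCA cycle. Of these, 33 were among the 14291 genes of the deposited table, and Cpt1b was not analysed here. The 3 wild-type libraries came from mice with floxed Prmt5 alleles (Prmt5flox/flox) and the 3 knockout libraries from mice labelled Prmt5AKO. The labels name no Cre driver and no cell type for the deletion, and give no age, sex or diet. Prmt5 encodes an arginine methyltransferase, and the comparison asks how transcript levels in fat differ between these genotypes. Whether the libraries of a genotype stem from different mice is not stated, and the p-values therefore measure no more than library-to-library spread, part of which may be technical.

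Fatty acids enter mitochondria as carnitine esters and are shortened there in repeated rounds of dehydrogenation, hydration, dehydrogenation and thiolysis, each of which releases acetyl-CoA. Pyruvate dehydrogenase makes acetyl-CoA from pyruvate, and the TCA cycle oxidises acetyl-CoA from both sources and passes electrons to the respiratory chain. In white fat these enzymes are less abundant than in brown fat, where fatty acid oxidation fuels heat production.

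Total counts ran from 17489530 to 26403882 per library, and the lowest count of any of the 33 genes in any library was 1315, so counting error was small beside the spread between libraries. Prmt5 had 37.5, 59.9 and 40.8 CPM (counts relative to library size, scaled by edgeR's TMM factors) in wild type against 14.8, 22.4 and 28.5 CPM in knockout, with no overlap (log2 fold change -1.07, edgeR adjusted p = 0.467). Adipocyte markers were abundant in every library, with Adipoq between 3351 and 5513 CPM. The X-inactivation transcript Xist stood at 958.1, 106.1 and 509.7 CPM in wild-type and 1044, 45.6 and 47.2 CPM in knockout replicates 1 to 3, although the epididymal depot is found in males, and the 4 Y-linked genes looked for were not analysed here. The first principal component, which held 61.8% of the variance of log2 CPM, put wild-type replicates 1 and 3 and knockout replicate 1 on one side (-78.2, -45.7 and -53.3) and wild-type replicate 2 and knockout replicates 2 and 3 on the other (27.3, 64.9 and 85), the same split as high and low Xist. The part of this split in the results below was not tested. The deposited fold changes matched an edgeR fit with a term that parts replicate 1 of both genotypes from replicates 2 and 3, to within 2.68e-08 on the log2 scale. The name of the deposited table holds the word batch, so this grouping is called a batch here, but neither the labels nor the table say what it was. Results of that batch-term fit stand beside those of the fit with genotype only.

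Promoter sequences of 4 of the genes are shown first because they hold features discussed here. These are a promoter shared by both subunits of one enzyme and some of the few matches to motifs of mitochondrial gene regulation. The windows of Idh3b and Idh3g, which hold ETS matches too, are not shown. They are RefSeq windows on GRCm38.p6, each from 250 bases before to 50 bases after the start site, written 5′ to 3′ on the strand of the gene. Capitals mark the 228 bases that the Hadha window (chr5:30154931-30155230, minus strand) shares with that of its neighbour Hadhb (chr5:30155003-30155302, plus strand), and in the other windows they mark the motif matches, as the motif or its reverse complement. The Cpt2 window is chr4:107923540-107923839 (minus strand), the Dlst window chr12:85110583-85110882 (plus strand) and the Etfdh window chr3:79628718-79629017 (minus strand).
Hadha: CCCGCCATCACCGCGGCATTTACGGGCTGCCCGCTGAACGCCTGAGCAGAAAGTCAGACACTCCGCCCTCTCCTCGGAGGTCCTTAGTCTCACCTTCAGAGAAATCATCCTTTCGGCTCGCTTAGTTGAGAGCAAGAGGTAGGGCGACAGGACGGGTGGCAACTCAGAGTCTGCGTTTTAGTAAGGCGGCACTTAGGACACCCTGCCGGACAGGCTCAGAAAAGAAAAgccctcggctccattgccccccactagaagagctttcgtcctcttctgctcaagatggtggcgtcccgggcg
Cpt2: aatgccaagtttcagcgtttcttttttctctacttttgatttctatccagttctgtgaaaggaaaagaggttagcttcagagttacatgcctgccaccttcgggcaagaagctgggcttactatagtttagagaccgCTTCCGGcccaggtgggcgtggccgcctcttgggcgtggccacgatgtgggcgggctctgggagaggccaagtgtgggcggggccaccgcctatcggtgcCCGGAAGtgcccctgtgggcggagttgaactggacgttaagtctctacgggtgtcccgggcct
Dlst: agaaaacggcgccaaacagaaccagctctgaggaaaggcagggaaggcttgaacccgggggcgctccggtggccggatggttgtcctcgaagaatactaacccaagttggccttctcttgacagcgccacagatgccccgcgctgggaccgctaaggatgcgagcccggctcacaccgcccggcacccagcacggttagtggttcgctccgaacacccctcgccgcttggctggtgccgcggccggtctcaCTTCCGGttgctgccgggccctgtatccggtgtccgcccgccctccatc
Etfdh: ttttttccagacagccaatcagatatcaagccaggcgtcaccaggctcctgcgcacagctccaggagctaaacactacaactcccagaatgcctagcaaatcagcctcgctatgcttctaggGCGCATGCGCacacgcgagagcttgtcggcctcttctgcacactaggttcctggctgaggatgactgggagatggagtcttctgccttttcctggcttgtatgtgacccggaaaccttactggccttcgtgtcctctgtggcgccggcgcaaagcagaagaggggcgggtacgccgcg
Windows were available for 30 of the 34 genes. The ETS motif CCGGAAG, searched on both strands, was in the windows of 4 of the 30 (Cpt2, Dlst, Idh3b and Idh3g, 13.3%), against 8.86% of all 32851 mouse windows. The palindromic NRF1 motif was in the window of 1 gene, Etfdh (3.33%, against 0.971% of all windows). The ERR motif TCAAGGTCA (0.423% of all windows), the nuclear receptor direct repeat (0.0396%) and the YY1 motif (0.633%) were in 0 of the 30. No 2 of these motifs overlapped in the windows shown. A match is a string of letters and not a measured binding site, and a missing match says only that these letters are not in the window.

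Most of these transcripts had a higher mean in knockout fat, but none passed the test with genotype only. Their summed level was 7416, 7967 and 8072 CPM in wild-type replicates 1 to 3, against 8367, 10760 and 9817 CPM in knockout, without overlap. That separation depends on the TMM scaling: CPM of all genes summed to 955000 in wild-type replicate 3 and 1162000 in knockout replicate 3. As shares of these totals, the summed levels of these transcripts were nearly equal in these replicates 3. For replicates 1 and 2 the totals were 920700 and 1028000 CPM in wild type and 854500 and 1114000 CPM in knockout. The shares of knockout replicates 1 and 2 lay above those of all wild-type libraries. The log2 fold change (knockout over wild type) was above 0 for 27 of 33 genes (81.8%), against 49% of all genes tested, and its median was 0.28, against -0.02 over all genes. The median was 0.16 without knockout replicate 2 and 0.41 without knockout replicate 1. The highest values were those of Etfb (1.11), Acaa2 (0.94) and Idh2 (0.80), and the lowest those of Pdha1 (-1.02) and Etfa (-0.59). Of the 33, 0 had an adjusted p under 0.05 in the quasi-likelihood test of edgeR, with p-values adjusted by Benjamini-Hochberg over all 14291 genes, where 0% of all genes were called. The smallest adjusted p was 0.474, that of Idh2. DESeq2 and limma-voom on the same design also called 0 of the 33, against 1.9% and 0% of all genes. At an unadjusted p under 0.05, 4 genes were higher (12.1%, against 5.26% of all genes) and 1 was lower (3.03%, against 3.37%). The batch-term fit called 0 of the 33 (0.504% of all genes called), with 25 above 0 (47.6% of all genes) and a median of 0.26. Its unadjusted p was under 0.05 for 8 higher genes (24.2%, against 12.1% of all genes) and 1 lower gene (3.03%, against 12.4%).

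The genotypes did not overlap for 6 of the 33 genes, with knockout higher for each (18.2%, against 8.32% of all genes). These were Acadvl, Hadha, Acaa2, Cs, Idh2 and Dlst. For 0 genes did all knockout libraries lie below all wild-type libraries (6.2% of all genes did). Knockout replicate 2 held the highest of the 6 values for 15 genes and knockout replicate 3 for 7, while knockout replicate 3 also held the lowest value for 9 genes. A difference in bulk tissue can come from fewer cells of a type or from less RNA per cell, and these cannot be told apart here.

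**Figure D1:**
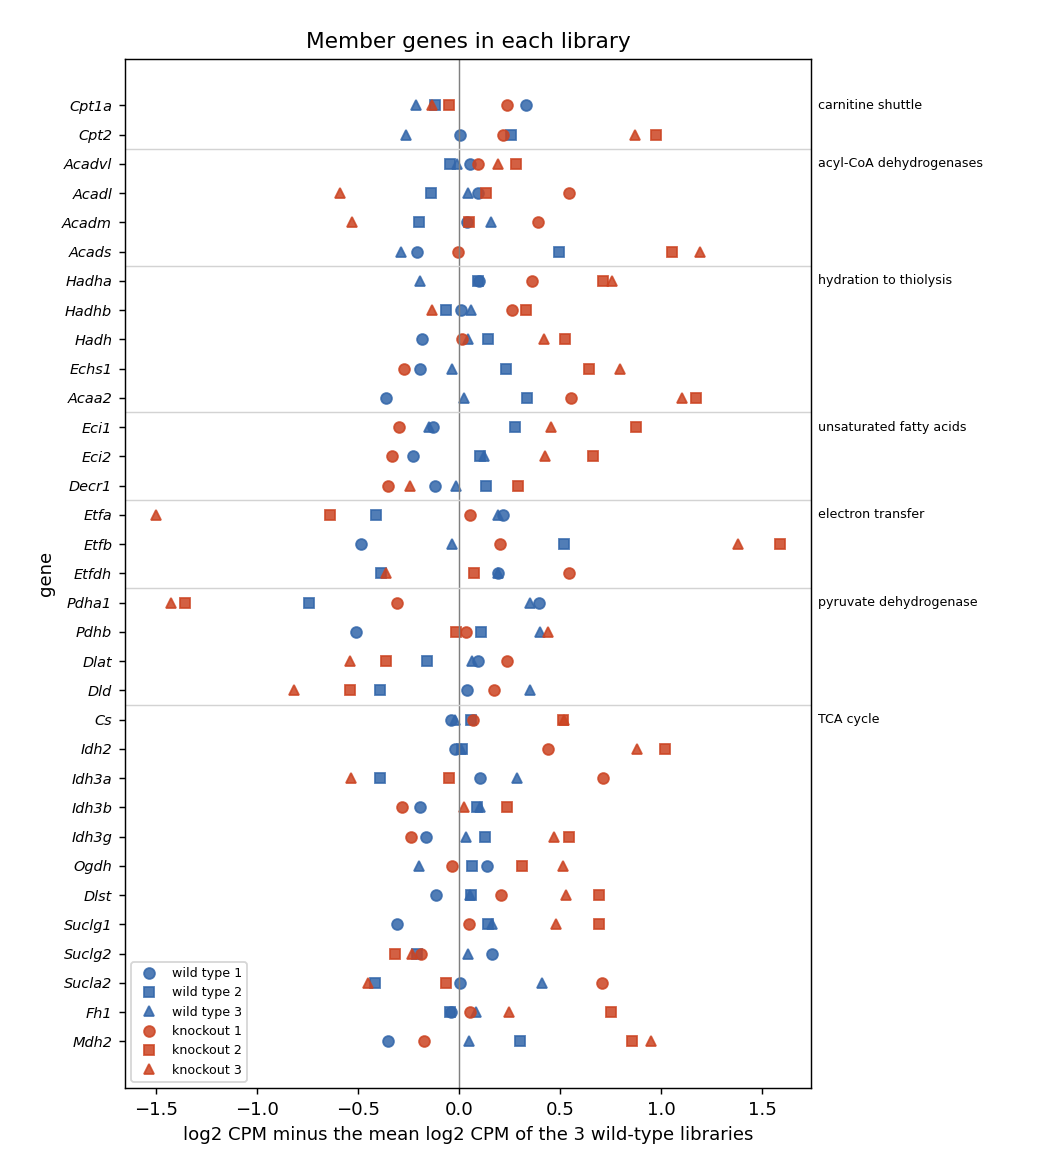
Log2 CPM of the 33 genes in each of the 6 libraries, relative to the mean log2 CPM of the 3 wild-type libraries (x axis), with genes grouped by role on the y axis. Knockout replicates 2 and 3 lie at the right for many genes, but at the far left for Etfa and Pdha1.

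Of the carnitine shuttle, Cpt1a had nearly equal means in both genotypes and Cpt2 a higher mean in knockout. Cpt1a, the outer-membrane carnitine palmitoyltransferase that commits fatty acids to oxidation, had 94.9, 69.7 and 65.3 CPM in the wild-type libraries (here and below in the order of replicates 1 to 3) and 89.0, 73.0 and 68.9 CPM in the knockouts. The ranges overlap throughout, and the log2 fold change was 0.01 (SE 0.26). Cpt2, which turns acyl-carnitines back into acyl-CoA inside the mitochondrion, stood at 127.2, 151.1 and 105.7 CPM in wild type and 147.1, 248.5 and 231.5 CPM in knockout. Knockout replicates 2 and 3 lay above all wild-type libraries and knockout replicate 1 lay within them. The means were 128.0 ± 22.7 and 209.0 ± 54.3 CPM (SD, n = 3 each; log2 fold change 0.71, SE 0.30, edgeR adjusted p = 0.572, and 0.167 in the batch-term fit). Cpt1a had the lowest level per exon length of the 33 genes in both genotypes, at 17.8 ± 3.72 and 17.9 ± 2.47 RPKM.

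The 4 acyl-CoA dehydrogenases, which differ in the chain length they act on, differed in which libraries were highest. The short-chain enzyme Acads stood at 141.5, 229.6 and 134.0 CPM in wild type and at 162.8, 338.6 and 372.6 CPM in knockout. Wild-type replicate 2 lay above knockout replicate 1, so the genotypes overlapped (log2 fold change 0.79, SE 0.39, edgeR adjusted p = 0.589). The very-long-chain enzyme Acadvl varied least, at 250.9, 233.8 and 240.1 CPM in wild type and 257.6, 293.6 and 276.2 CPM in knockout. Every knockout value exceeded every wild-type value, by a small margin (log2 fold change 0.19, SE 0.24). That order rests on the TMM factors, which ran from 0.861 in knockout replicate 3 to 1.17 in knockout replicate 1. Medium-chain Acadm, the most abundant of the 4 per exon length (194.2 ± 24.2 RPKM in wild type), stood at 409.6, 346.7 and 445.0 CPM in wild type. Its knockout values of 521.8, 411.4 and 275.9 CPM spanned that range on both sides, and the log2 fold change was 0.01 (SE 0.32), or -0.02 in the batch-term fit. The long-chain gene Acadl had the same pattern, highest in knockout replicate 1 (465.1 CPM) and lowest in knockout replicate 3 (211.9 CPM). Exons of Acadvl share 44.6% of their length with Dvl2 on the other strand. The sources used here do not give whether reads were counted by strand, so both counts are uncertain. Dvl2 stood at 11.1 to 17.9 CPM, a level that the overlap may itself affect.

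Among the enzymes of the later steps of each round, Acaa2 stood highest relative to wild type. Acaa2, the thiolase that releases acetyl-CoA, stood at 133.0, 216.0 and 174.1 CPM in wild type and 250.6, 385.7 and 367.7 CPM in knockout. All 3 knockout libraries lay above all wild-type libraries, and the difference was as large within replicate 1 (0.91 on the log2 scale) as within replicates 2 and 3 (0.93). The means of 174.4 ± 41.5 and 334.7 ± 73.4 CPM gave a log2 fold change of 0.94 (SE 0.31, edgeR adjusted p = 0.481), and 0.94 (SE 0.19, adjusted p = 0.0809) in the batch-term fit. With offsets that remove each library's trend with transcript length and GC content, Acaa2 was called higher in the batch-term fit (0.77, edgeR adjusted p = 0.0452), the only one of the 33. In that fit 2.65% of all genes were called, 1.73% higher and 0.924% lower, and 30 of the 33 lay above 0 (54% of all genes).

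The trifunctional protein carries the hydratase and hydroxyacyl-CoA dehydrogenase in its alpha subunit, Hadha, and the thiolase in its beta subunit, Hadhb. Their genes lie head to head on chromosome 5 (Hadha 30118304 to 30154980, Hadhb 30155253 to 30184593, mm10), with 273 bases between the start sites, which gives the shared window printed above. Hadha stood at 317.4, 316.4 and 259.7 CPM in wild type and 380.8, 484.8 and 501.6 CPM in knockout, with no overlap (log2 fold change 0.61, SE 0.27, edgeR adjusted p = 0.572). Hadhb stood at 278.7, 264.9 and 288.6 CPM in wild type and 332.0, 348.3 and 252.6 CPM in knockout, where replicate 3 lay below all wild-type libraries (0.17, SE 0.26). The ratio of Hadha to Hadhb per exon length was 0.616, 0.646 and 0.487 in wild type and 0.621, 0.753 and 1.07 in knockout. Knockout replicate 3 had the highest ratio and knockout replicate 1 lay within the wild-type range. The log2 ratio was higher by 0.46 in knockout (two-sided exact permutation p = 0.2, and 0.4 adjusted over the 2 ratios tested, where 3 against 3 libraries cannot go below 0.1), and by 0.24 without knockout replicate 3. Hadhb has 2 processed pseudogenes with over 97% identity in GENCODE (97.6% and 99.8%), so its counts may miss or gain reads. Hadh, the short-chain hydroxyacyl-CoA dehydrogenase and the most abundant gene of this step per exon length in wild type (238.8 ± 27.2 RPKM), stood at 373.9, 469.3 and 437.6 CPM in wild type and 428.6, 612.0 and 568.9 CPM in knockout. Knockout replicate 1 lay within the wild-type range. The hydratase gene Echs1 had its lowest value in knockout replicate 1 (270.9 CPM) and its highest in knockout replicate 3 (567.8 CPM).

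Genes for unsaturated fatty acids did not separate the genotypes. Eci1, an isomerase that moves a double bond into place, stood at 179.9, 238.2 and 177.2 CPM in wild type and 160.2, 360.6 and 269.6 CPM in knockout, a log2 fold change of 0.41 (SE 0.35, edgeR adjusted p = 0.646). Eci2, a second isomerase, stood at 101.0, 127.1 and 129.1 CPM in wild type and 94.1, 187.0 and 158.8 CPM in knockout. In both genes knockout replicate 1 was the lowest library of all and knockout replicate 2 the highest. Without knockout replicate 1 the log2 fold changes of Eci1 and Eci2 were 0.66 and 0.53, without knockout replicate 2 they were 0.12 and 0.087, and without wild-type replicate 1 that of Eci2 was 0.20. Decr1, the dienoyl-CoA reductase, had a log2 fold change of -0.07 (SE 0.28), which became 0.43 with length and GC offsets.

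The electron transfer flavoprotein, which takes electrons from the acyl-CoA dehydrogenases, is built from 1 alpha and 1 beta chain, and their log2 fold changes had opposite signs. Etfb, the beta chain (chromosome 7, 43444072 to 43457800), stood at 274.4, 549.8 and 374.0 CPM in wild type and 441.3, 1152 and 997.0 CPM in knockout. Wild-type replicate 2 exceeded knockout replicate 1, so the genotypes overlapped. Its means of 399.4 ± 139.4 and 863.5 ± 373.8 CPM differed 2.16-fold (log2 fold change 1.11, SE 0.45, edgeR adjusted p = 0.561; 1.04, SE 0.24 and adjusted p = 0.099 in the batch-term fit). Per exon length Etfb was the most abundant of the 33 genes in both genotypes, at 441.8 ± 154.2 and 955.2 ± 413.5 RPKM. Etfa, the alpha chain (chromosome 9, 55454436 to 55512243), stood at 345.3, 223.8 and 339.8 CPM in wild type and at 308.7, 191.3 and 105.2 CPM in knockout. Knockout replicates 2 and 3 lay below all wild-type libraries, and knockout replicate 1 lay among them (-0.59, SE 0.42, adjusted p = 0.617, edgeR). The log2 fold change of Etfa was -1.03 without knockout replicate 1 and -0.28 without knockout replicate 3.

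The ratio of Etfb to Etfa per exon length was 1.29, 3.98 and 1.78 in wild type and 2.32, 9.76 and 15.4 in knockout, a pair chosen after its values were seen and so given without a test. Wild-type replicate 2 stood above knockout replicate 1, so the ratios overlapped between genotypes. With length and GC offsets the log2 fold changes were 0.67 for Etfb and -0.39 for Etfa. An annotated gene, Gm45233, shares 68.3% of the exonic bases of Etfb on the same strand, and how such reads were counted is likewise not given. Etfdh, the oxidoreductase that hands these electrons to ubiquinone, stood at 108.6, 72.9 and 108.9 CPM in wild type and 138.7, 100.2 and 74.1 CPM in knockout, so the genotypes overlapped, with knockout replicate 1 above all wild-type libraries.

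**Figure D2:**
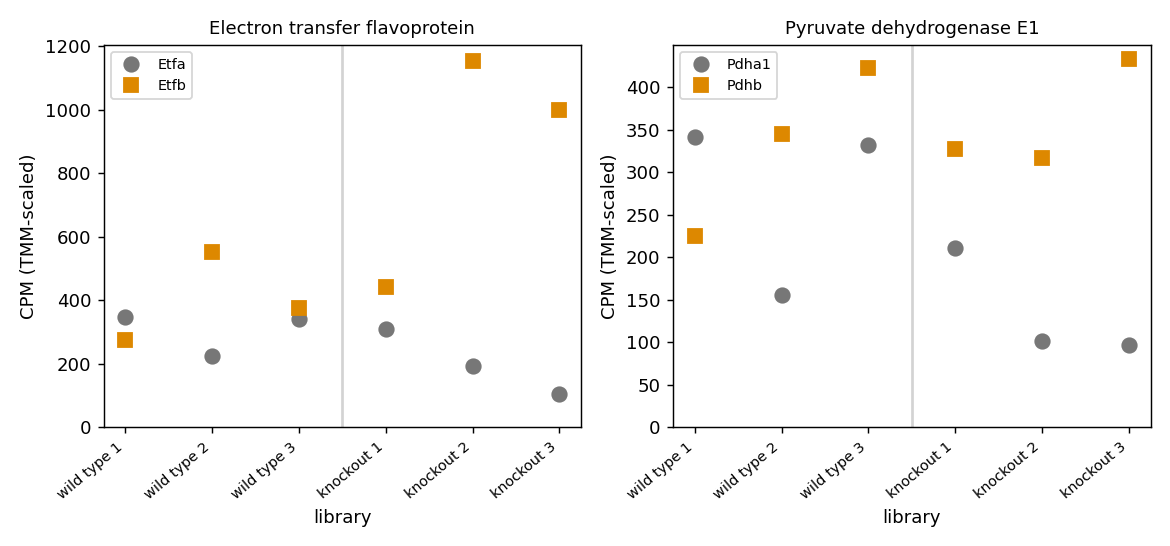
CPM (TMM-scaled, linear axis from 0) of the alpha and beta subunit genes of the electron transfer flavoprotein and of pyruvate dehydrogenase E1 in each library, 1 point per library. The gap between subunits is wide in wild-type replicate 2 and knockout replicates 2 and 3, and the Etfb values of 1152 and 997.0 CPM in knockout replicates 2 and 3 are the highest of that panel.

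Pyruvate dehydrogenase was the group with most members below 0. Pdha1, the X-linked E1 alpha subunit that kinases switch off by phosphorylation (160122219 to 160138336), stood at 341.8, 155.3 and 331.5 CPM in wild type and 210.2, 101.6 and 96.8 CPM in knockout. Knockout replicate 1 lay above wild-type replicate 2, so the genotypes overlapped. The knockout mean was 49.3% of wild type (276.2 ± 104.8 and 136.2 ± 64.1 CPM; log2 fold change -1.02, SE 0.44, edgeR adjusted p = 0.572), and in the batch-term fit the value was -1.10 (SE 0.31, adjusted p = 0.125). The sign was the same within replicate 1 (-0.70) and within replicates 2 and 3 (-1.32). Exons of Map3k15 on the other strand cover 21.8% of the exonic length of Pdha1, so both counts are uncertain. Map3k15 stood at 1.05 to 3.42 CPM, a level that the overlap may itself affect.

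The E1 beta subunit Pdhb, the most abundant gene of the complex per exon length (222.6 ± 67.0 RPKM in wild type), stood at 224.6, 345.3 and 422.0 CPM in wild type and 327.0, 316.3 and 433.1 CPM in knockout. These ranges overlap, and the highest libraries of Pdhb were replicates 3 of both genotypes. The ratio of Pdhb to Pdha1 per exon length, also chosen after its values were seen and not tested, was 1.22, 4.13 and 2.37 in wild type and 2.89, 5.79 and 8.32 in knockout. Dld, the E3 subunit that pyruvate and oxoglutarate dehydrogenase share, stood at 209.3, 155.4 and 259.5 CPM in wild type and 229.3, 140.0 and 115.5 CPM in knockout (-0.36, SE 0.35). The value for Dld was -0.71 without knockout replicate 1, -0.17 without knockout replicate 3 and -0.18 without wild-type replicate 3. The E2 subunit Dlat had a log2 fold change of -0.19 (SE 0.29). With length and GC offsets Dld and Dlat lay above 0 (0.26 and 0.12) and Pdha1 below 0 (-0.67).

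In the TCA cycle 11 of 12 genes lay above 0, with a median of 0.34. Idh2, the NADP-dependent mitochondrial isocitrate dehydrogenase, had wild-type values that were nearly equal, 103.4, 105.8 and 105.5 CPM, and knockout values of 142.3, 212.3 and 192.8 CPM. All knockout libraries lay above all wild-type libraries (104.9 ± 1.35 and 182.5 ± 36.1 CPM; log2 fold change 0.80, SE 0.26). Its adjusted p of 0.474 was the smallest of the 33 in the genotype-only fit (edgeR), and it was 0.11 in the batch-term fit. The value was 0.46 within replicate 1, 0.91 within replicates 2 and 3, and 0.52 with length and GC offsets. Dlst, the E2 subunit of oxoglutarate dehydrogenase, stood at 189.8, 214.6 and 213.6 CPM in wild type and 237.1, 332.3 and 296.6 CPM in knockout, again with no overlap (0.49, SE 0.26, edgeR adjusted p = 0.592). Its partner Ogdh was at 0.28 (SE 0.28).

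Mdh2, the malate dehydrogenase of the matrix and the most abundant TCA cycle gene per exon length (297.0 ± 65.6 RPKM in wild type and 450.7 ± 167.2 RPKM in knockout), stood at 293.9, 461.7 and 386.7 CPM in wild type. Its knockout values were 331.7, 677.9 and 723.7 CPM, so replicate 1 lay within the wild-type range. Citrate synthase, Cs, which condenses acetyl-CoA with oxaloacetate, did not overlap between genotypes at 447.2 to 478.3 CPM in wild type and 481.4 to 657.3 CPM in knockout. The 3 subunits of NAD-dependent isocitrate dehydrogenase, Idh3a, Idh3b and Idh3g, were at 0.11, 0.00 and 0.29, and Suclg1 and Fh1 at 0.42 and 0.38.

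Succinyl-CoA ligase has alternative beta subunits, Sucla2 for the ADP-forming and Suclg2 for the GDP-forming enzyme. Sucla2 stood at 133.5, 99.9 and 176.6 CPM in wild type and 217.1, 127.1 and 97.4 CPM in knockout. Suclg2, the lowest TCA cycle gene per exon length, stood at 85.8, 66.2 and 78.8 CPM in wild type and 67.1, 61.5 and 65.0 CPM in knockout. Both genes overlapped between genotypes. The ratio of Sucla2 to Suclg2 per exon length was 2.52, 2.44 and 3.63 in wild type and 5.24, 3.35 and 2.43 in knockout, so knockout replicate 1 was the highest library and knockout replicate 3 the lowest. The log2 ratio was higher by 0.31 in knockout (two-sided exact permutation p = 0.7, adjusted 0.7). That difference was 0.018 without knockout replicate 1, 0.573 without knockout replicate 3, 0.207 without wild-type replicate 2 and 0.493 without wild-type replicate 3. A processed pseudogene with 98.9% identity makes the Suclg2 counts uncertain, and one with 97.0% identity those of Pdhb.

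**Figure D3:**
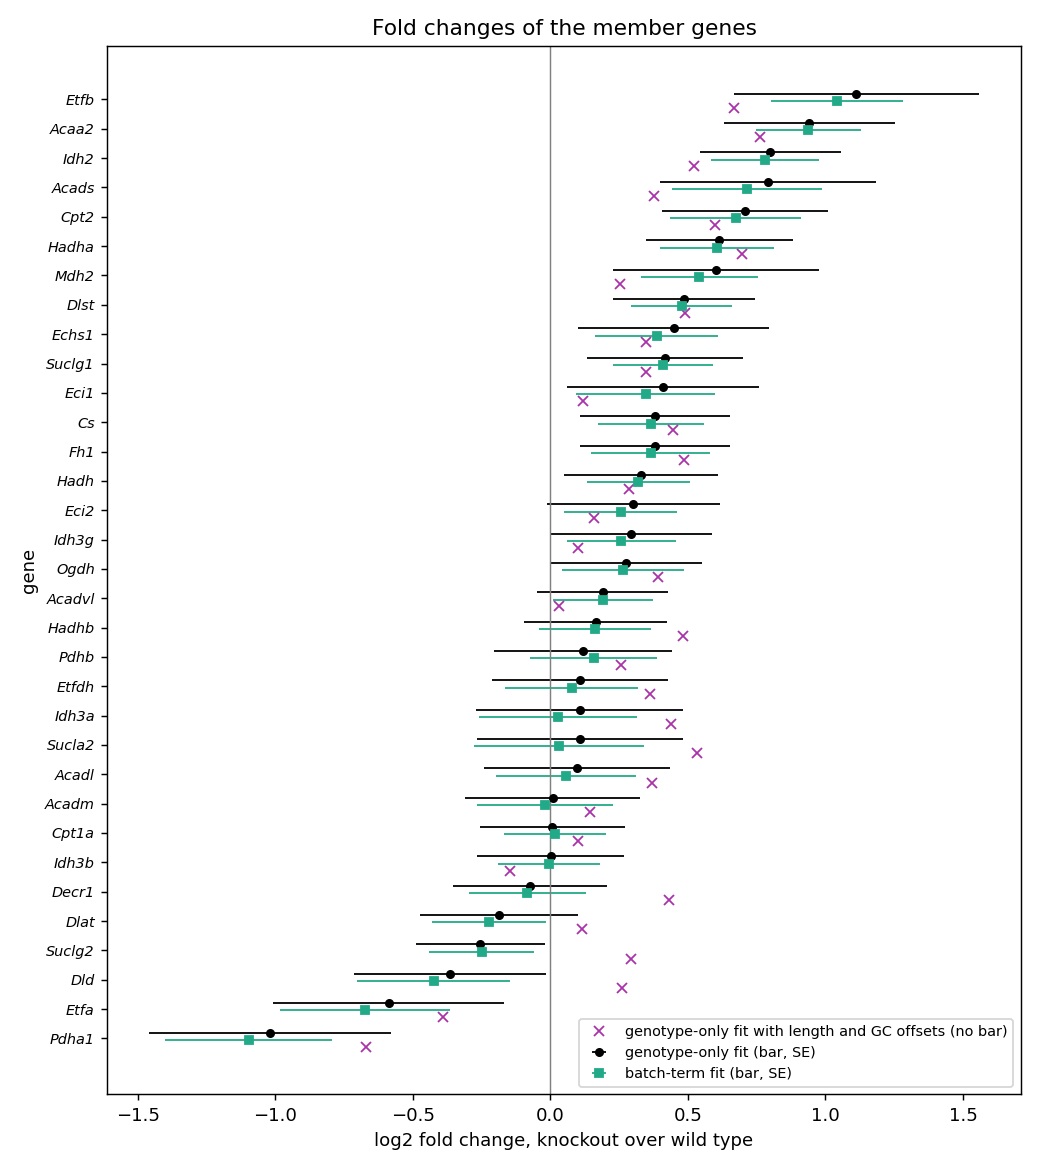
Log2 fold changes (x axis) of the 33 genes, ordered by the genotype-only fit (circles with SE), beside the batch-term fit (squares with SE) and the genotype-only fit with length and GC offsets (crosses). Etfb (1.11), Acaa2 (0.94) and Idh2 (0.80) are at the top and Pdha1 (-1.02) at the bottom, and with the offsets Decr1, Dlat, Dld and Suclg2 go from below to above 0 and Idh3b to -0.15.

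The log2 fold changes varied with the GC content of the transcript, a property the choice of genes did not use. Across the 33 genes, Pearson's r between transcript GC content and the log2 fold change was 0.75 (Spearman's rho 0.74), against 0.44 (0.52) across the 13786 genes with a known GC content. These are correlations across genes that share the same 6 libraries, and genes are not independent replicates. The 17 genes with a GC content of 50.5% to 60.1% all lay above 0 (median 0.45), among them Acads, Etfb and Idh2. Of the 16 genes at 40.6% to 50.4%, such as Dld, Sucla2, Etfa and Pdha1, 10 lay above 0 (median 0.10). The same relation was present among wild-type libraries: r was 0.78 for wild-type replicate 2 against the mean of wild-type replicates 1 and 3. It was 0.80 for knockout replicates 2 and 3 against knockout replicate 1, and 0.11 for knockout replicate 1 against wild-type replicate 1.

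Within replicates 2 and 3, where 21 of the 33 lay above 0 (47.6% of all genes), all 17 GC-rich genes lay above 0 (median 0.58) and 4 of the 16 GC-poor genes did (median -0.19). Within replicate 1, 10 of the 17 and 12 of the 16 lay above 0, with medians of 0.17 and 0.20. Of the 33 genes, 66.7% lay above 0 within replicate 1 and 63.6% within replicates 2 and 3. Both held for 14 (42.4%), Acaa2, Idh2, Etfb, Hadha, Cpt2 and Dlst among them. The share of all genes above 0 in both was not computed, so this count is a description only. With length and GC offsets, 30 of 33 genes lay above 0 (55.4% of all genes), the median was 0.35 (0.06 over all genes), and r with GC content was 0.20. In that fit the medians of the GC-rich and GC-poor genes were alike (0.35 and 0.36), and 0 of the 33 were called (0.098% of all genes). What sets the relation with GC content was not tested.

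**Figure D4:**
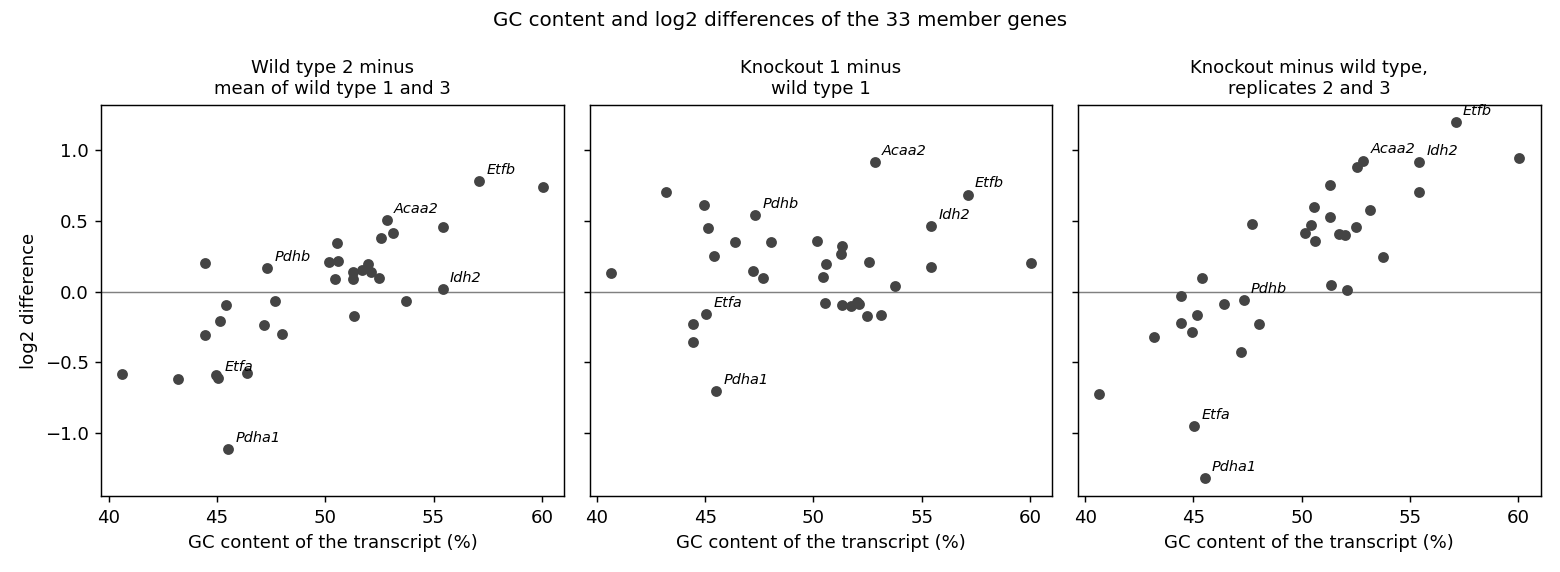
GC content of the transcript in percent (x axes) against the log2 difference (y axis) for the 33 genes, 1 point per gene, in a contrast within wild type, within replicate 1, and between genotypes in replicates 2 and 3. The slope is upward in the first and last panels and nearly flat in the middle one, where r was 0.11.

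Other genes of the same pathways were taken from 6 lists by function, and up to 3 of each list, those with the smallest p, are given with values. None of the genes in these 6 lists was called in the genotype-only fit or the batch-term fit (edgeR). Of 6 genes of carnitine and acyl transport 3 lay above 0, with the carnitine-acylcarnitine carrier Slc25a20 at 92.7 ± 13.7 CPM in the wild-type and 131.5 ± 21.9 CPM in the knockout libraries (SD, n = 3 each, as for all pairs of means that follow), without overlap. The long-chain acyl-CoA synthetase Acsl1 stood at 1956 ± 844 and 1078 ± 400 CPM, and the peroxisomal acyltransferase Crot at 51.1 ± 9.48 and 37.8 ± 15.1 CPM.

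Pyruvate entry and the enzymes that control pyruvate dehydrogenase had 6 of 11 above 0. The inhibitory kinase Pdk1 averaged 61.3 ± 12.6 CPM in wild type against 26.8 ± 9.98 CPM in knockout, all knockout libraries below all wild-type libraries (-1.20, edgeR adjusted p = 0.4). Another kinase, Pdk3, stood at 9.72 ± 0.897 and 17.4 ± 3.29 CPM (0.84), also without overlap, and the activating phosphatase Pdp1 at 18.2 ± 6.78 and 7.45 ± 4.07 CPM (-1.29). With length and GC offsets in the batch-term fit Pdk1 was called lower (adjusted p = 0.0386, edgeR) and Pdk3 higher (adjusted p = 0.0434, edgeR).

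Of 10 further TCA cycle genes 6 lay above 0. The scarce oxoglutarate dehydrogenase-like gene Ogdhl stood at 1.12 ± 0.476 and 1.99 ± 0.402 CPM (0.82), without overlap. The transhydrogenase Nnt, which makes NADPH in the matrix, stood lower without overlap, at 62.0 ± 7.96 and 35.7 ± 9.40 CPM (-0.80, edgeR adjusted p = 0.516). Among 16 other mitochondrial acyl-CoA genes 9 lay above 0. Acad9, a complex I assembly factor of the acyl-CoA dehydrogenase family, stood at 58.0 ± 1.10 and 93.8 ± 18.9 CPM, without overlap. Malonyl-CoA decarboxylase, Mlycd, stood at 74.4 ± 20.4 and 135.7 ± 55.0 CPM. The thioesterase Acot2 stood at 25.4 ± 6.03 and 15.0 ± 0.265 CPM, without overlap. Acad9 was called higher (adjusted p = 0.0455, edgeR) and Acot2 lower (adjusted p = 0.0452, edgeR) with length and GC offsets in the batch-term fit.

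Cytosolic counterparts of TCA cycle enzymes had 4 of 5 above 0. The exception was malic enzyme, Me1, at 943.9 ± 285.2 and 406.1 ± 48.7 CPM (-1.22), without overlap. Cytosolic aconitase, Aco1, stood at 217.2 ± 29.4 and 343.4 ± 71.0 CPM (0.66), also without overlap, and Idh1 at 373.5 ± 92.9 and 402.9 ± 78.1 CPM. Of 13 regulators 9 lay above 0. Esrra, a nuclear receptor that drives oxidative genes, stood at 54.9 ± 8.08 and 96.6 ± 20.8 CPM without overlap (0.82, edgeR adjusted p = 0.485, and 0.40 with length and GC offsets). Pparg, the adipocyte nuclear receptor, stood at 190.1 ± 20.7 and 126.5 ± 30.5 CPM, lower in all 3 knockout libraries, and Yy1, a zinc finger factor, at 56.8 ± 8.85 and 38.1 ± 10.6 CPM.

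Markers of tissues rich in these enzymes varied between libraries. All 10 brown and beige fat markers analysed lay above 0 in the genotype-only fit (49% of all genes). In the batch-term fit 9 of the 10 did, and in replicates 2 and 3 alone 8 (47.6% of all genes in each). Their summed level was 165.7 to 383.0 CPM in wild type and 648.6 to 989.9 CPM in knockout. Kcnk3 was called in the batch-term fit (1.85, edgeR adjusted p = 0.0183), and Ucp1 ranged from 0.273 to 88.1 CPM in wild type and from 77.0 to 278.2 CPM in knockout. The 10 skeletal muscle markers summed to 1507, 144.9 and 2970 CPM in wild type and 398.7, 1107 and 2026 CPM in knockout, with Myh1 and Myh4 at 0 in wild-type replicate 2, and 9 of the 10 lay below 0. Acta1, the only one above 0, held much of these sums. It stood at 563.6, 140.1 and 983.2 CPM in wild type and 266.1, 1007 and 1216 CPM in knockout. Macrophage markers summed to 1160 to 2176 CPM in wild type and 1656 to 2788 CPM in knockout. Lyz2, at 511.9 to 1226 and 817.7 to 1592 CPM, weighed most in these sums. Of the 8 macrophage markers 6 lay above 0, and Mrc1 and Itgam lay below. Adipocyte markers summed to 40720 to 56920 and 29600 to 45280 CPM, with 6 of 10 above 0. The most abundant, Fabp4 (15250 ± 2478 and 11340 ± 2165 CPM) and Cfd (13580 ± 2664 and 5519 ± 1124 CPM), were lower in knockout and weigh most in these sums. Lep and Cidec were the others below 0. Cfd was called lower with length and GC offsets in the batch-term fit (edgeR adjusted p = 0.00672). The 3 cardiac markers analysed summed to at most 15.6 CPM. The 5 hepatocyte markers summed to 2675 to 4853 CPM in wild type and 1372 to 3797 CPM in knockout, and 4 of them lay below 0. Cyp2e1, which is also abundant in fat, held most of these sums, at 2497 to 4419 and 1321 to 3695 CPM. Genes of epididymis and testis were not analysed here. The part of these cell types in the members' values was not tested.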

How the data were processed

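PolyA RNA of 3 wild-type and 3 Prmt5 knockout libraries was sequenced on an Illumina HiSeq, per the labels' protocols. TopHat2, HTSeq 0.6.1 and the build mm10 are listed, with no role or order, per the submitters' processing notes. The authors deposited 1 table of 14291 genes with raw counts. Beside them stand log2 RPKM values, a log2 fold change, a p-value and an adjusted p-value that the authors computed, per the file headers. Genotype and replicate came from the sample titles, and 0 value columns lacked a sample.

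Counts were tested with edgeR 4.0.16 (R 4.3.3; TMM, filterByExpr, which removed 0 genes, glmQLFit, glmQLFTest), with genotype only and Benjamini-Hochberg adjustment over all genes; a gene was called under 0.05. The biological coefficient of variation was 0.435, and 0.32 with the batch term. The fit was tested on simulated data. CPM are TMM-scaled; RPKM divide them by the deposited exonic length. GC content is that of the GENCODE M21 transcript nearest in length, coding where there is one (known for 96.5% of genes), and offsets are loess fits (span 0.5) per library. Near copies among GENCODE transcripts were searched with BLAST at 95% identity or more. Whether equal replicate numbers pair the libraries is not stated. Deviations of same-numbered libraries correlated at 0.638, 0.533 and -0.102 for replicates 1, 2 and 3, which does not settle it.

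The members, lists, tests and alternatives were chosen with earlier results of these data known. Values in every library are given for a fixed set: the carnitine transferases, the 2 smallest p and the highest RPKM of each role, and both subunits of paired enzymes; of other lists, up to 3 genes with the smallest p, of which 1 is not reported here. The planned ratio of Cpt1b to Cpt1a was not computed.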

Additional observations from a re-analysis of the deposited data

How the results depend on the processing

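The number of genes called over the whole table depended on the fit. That of members was 0 or 1, but no fit called more than 2.65% of all genes. At such shares a list as short as that of the members would hold few calls in any fit. The member counts therefore do not show whether members depend less on the fit than other genes. Against 0 genes with genotype only, the counts were 1 with RLE size factors, 3 at an adjusted p under 0.1, 14 with length and GC offsets, 50 in replicates 2 and 3 alone, 72 with the batch term, 271 in DESeq2 and 379 with offsets and the batch term. With the replicate block 57 genes and 0 members were called, but whether the replicate numbers pair the libraries is not stated. Leaving out a library gave 0 to 205 genes and 0 members. In the genotype-only fit 42 were called without knockout replicate 1 and 0 without any other library, and in the batch-term fit 0 were called without knockout replicate 2, 21 without knockout replicate 1 or 3, 29, 125 and 205 without wild-type replicates 1, 2 and 3. Of the members, 1 was called in any fit, Acaa2, with offsets and the batch term. The members' median log2 fold change was 0.15 to 0.41 with a library left out, lowest without knockout replicate 2 in the batch-term fit and highest without knockout replicate 1, and 21 to 28 members lay above 0.

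In the fits run, 21 members kept their sign, 19 of them above 0. No fit used replicate 1 alone. Of the 19, Echs1 (-0.078), Eci1 (-0.168), Eci2 (-0.102), Idh3g (-0.074) and Ogdh (-0.17) lay below 0 within replicate 1. Near 0, Acadm went to -0.028 with the replicate block, -0.020 with the batch term and -0.032 in limma-voom, and Idh3b to -0.0050 with the strict filter, -0.0080 with the block, -0.0050 with the batch term, -0.0070 in limma-voom and -0.147 with offsets, with or without the batch term. In replicates 2 and 3 alone Acadl (-0.163), Acadm (-0.228), Etfdh (-0.085), Pdhb (-0.059), Idh3a (-0.285) and Sucla2 (-0.324) lay below 0, as did the log2 ratio of Sucla2 to Suclg2 (-0.062). With offsets Decr1 (0.43), Dlat (0.116), Dld (0.26) and Suclg2 (0.294) lay above 0, and with offsets and the batch term they were at 0.343, 0.12, 0.256 and 0.242; offsets remove the trend with length and GC content by construction. With a library left out the ranges were -0.187 to 0.35 for Acadl, -0.226 to 0.221 for Acadm, -0.108 to 0.19 for Cpt1a, -0.298 to 0.044 for Decr1, -0.151 to 0.303 for Etfdh, -0.301 to 0.352 for Idh3a, -0.129 to 0.123 for Idh3b, -0.097 to 0.334 for Pdhb and -0.322 to 0.378 for Sucla2. For the other reversals the cause was not tested. Omitting the filter removed no gene and changed no value. A ratio test of 3 against 3 libraries cannot go below 0.1.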
